A study of Mus musculus with 4 samples.

Results

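The cells described here are the liver endothelial cells, the cells that line blood and lymph vessels, found among single cells from mouse liver whose samples are labelled as biliary epithelium (the lining of the bile ducts). A cell was taken as endothelial if it had at least 500 UMIs (unique molecular identifiers, counts of single transcripts) and at least 4 UMIs summed over Ptprb, Stab2, Flt1, Cdh5, Adgrf5, Ldb2, Selp and Cyyr1. It also had to hold fewer UMIs than that over 7 biliary and mesenchymal genes, Epcam, Krt19, Pkhd1, Cldn7, Reln, Dcn and Col1a2. By this rule 184 of 12211 cells were endothelial, 1.51% of the total. There were 38 of 2863 cells in sham replicate 1, 99 of 3194 in sham replicate 2, 17 of 2089 in BDL replicate 1 and 30 of 4065 in BDL replicate 2.

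The 4 libraries are from liver of the genotype Sox9EGFP, a reporter line, and both groups carry the reporter; age, sex and strain are not given in the sources used here. Of these, 2 were labelled as taken 7 days after sham surgery and 2 as taken 7 days after ligation of the bile duct (BDL), which blocks the outflow of bile. The labels do not say that each library is a separate animal, so p-values measure the spread between libraries only. Fixed cells were barcoded in split pools with the Evercode kit. The labels describe no sort for endothelial cells, so the share of endothelial cells is a share of what was captured. The deposited cell tables carry group names of their own, and these go against the sample label for sham replicate 2 (named BDL) and BDL replicate 2 (named sham). Groups follow the labels throughout. Replicate numbers were given here and pair no libraries across groups. No cell barcode was shared between libraries. The endothelial cells of each library were spread over 8 sublibraries, or 7 in BDL replicate 2.

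The endothelium of the liver sinusoids is fenestrated, lacks a continuous basement membrane, and takes up waste molecules from the blood through scavenger receptors such as Stab1, Stab2, Lyve1 and Mrc1. The endothelium of larger portal and central vessels carries von Willebrand factor (Vwf) and adhesion molecules, and the lymphatic endothelium of the portal tracts is set by the transcription factor Prox1 and secretes the chemokine Ccl21a. In chronic liver injury sinusoidal endothelium is known to lose fenestrae and gain basement membrane, a change called capillarization.

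Endothelial genes that the rule did not use were found in most of these cells. Of the 184 cells, 170 (92.4%) had a UMI of at least 1 of 7 such genes: Pecam1, Kdr, Tek, Erg, Eng, Tie1 and Emcn. Pecam1, an adhesion molecule of endothelial junctions, was found in 65.8% of endothelial cells and in 4.57% of biliary cells. Kdr, the main receptor for VEGF, was found in 48.4% of endothelial and 0.264% of biliary cells. These are descriptions of cells chosen by related genes and are not tested. At the limit of the rule, the 15 cells with exactly 4 endothelial UMIs had a median of 686 UMIs and 80% of them had one of the 7 outside genes. The 8 cells with 3 endothelial UMIs, just outside, had a median of 767 UMIs and 87.5% of them had one.

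Another 204 cells reached 4 endothelial UMIs but held as many or more UMIs of the excluding genes, led by mesenchymal genes in 187 and by biliary genes in 17. Reln is also a gene of lymphatic endothelium. Among the barred cells, 3 had at least 3 UMIs over Prox1, Mmrn1 and Flt4 and were barred through Reln: 1 in sham replicate 2 and 2 in BDL replicate 2.

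The endothelial cells were shallow, and their depth differed between groups. Median UMIs per endothelial cell were 1334.5 in sham replicate 1, 1055 in sham replicate 2, 1734 in BDL replicate 1 and 2906 in BDL replicate 2. The medians of biliary cells in the same order were 3419, 3005, 7133 and 7884. Summed over endothelial cells, the libraries held 65710, 124215, 51879 and 109539 UMIs. The replicates differed beyond sampling noise, with a chi-square per degree of freedom of 3.59 between the sham sums and 4.16 between the BDL sums. The library is the replicate, n = 2 per group.

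Markers of other cell types were present at low levels. Over 11 biliary markers the endothelial sums held 1446, 934, 386 and 603 CPM (counts per gene scaled to an equal total of UMIs) in the order sham 1, sham 2, BDL 1 and BDL 2, against 11675 to 13639 CPM in biliary sums. Over 11 mesenchymal markers they held 730, 507, 212 and 758 CPM, of which Reln gave 98 UMIs, and Dcn was at 0 in both BDL libraries. The 10 macrophage markers held 30.4, 40.3, 0 and 612 CPM, and in BDL replicate 2 a single cell had 2 or more of these UMIs. Without that cell, the gene test given further on called 14 genes in place of 19, with 6 rises in place of 11; Tbc1d9, Prox1, Gja1, Uvrag and Nfat5 no longer passed. The 10 hepatocyte markers held 183, 177, 96.4 and 128 CPM. Of 8 lymphocyte markers, 6 were at 0 in every library.

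The share of endothelial cells was lower in both libraries labelled BDL, in a design too small for a test to pass. Of the cells with at least 500 UMIs, sham replicate 1 held 1.33% endothelial cells, with an exact 95% interval from 0.941 to 1.82, and sham replicate 2 held 3.11%, from 2.53 to 3.77. BDL replicate 1 held 0.814%, from 0.475 to 1.30, and BDL replicate 2 held 0.738%, from 0.498 to 1.05. Both sham libraries were higher than both BDL libraries, and the sham libraries differed from each other by more than the BDL libraries did. The means were 2.22% ± 1.26 (SD, n = 2) and 0.776% ± 0.0536 (SD, n = 2). BDL minus sham was -1.44 percentage points (two-sided exact permutation p = 0.33, the smallest that 2 libraries against 2 allow). It was -0.55 points without sham replicate 2 and -2.33 without sham replicate 1. With every cell thinned to 1000 UMIs and the rule scaled down to 2 endothelial UMIs it was -0.586 points. The intervals cover counting error only.

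**Figure D1:**
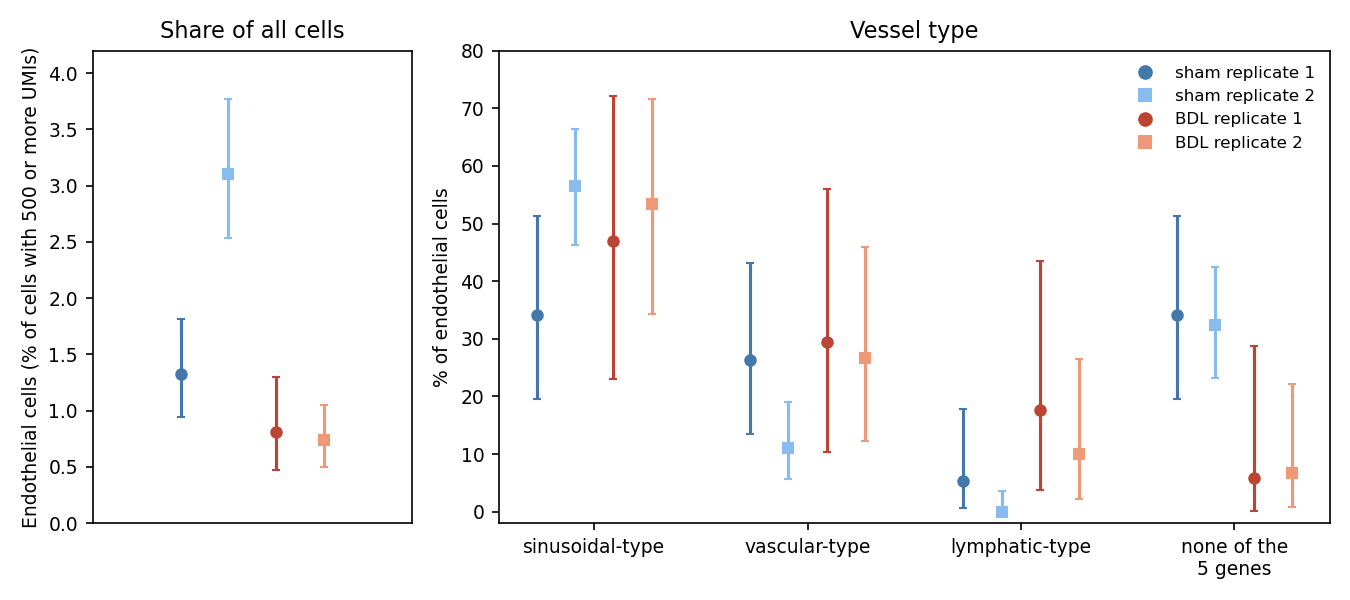
Endothelial cells as a percentage of cells with at least 500 UMIs (left) and vessel types as a percentage of endothelial cells (right), one point per library, with exact 95% intervals for counting error. Both sham libraries lie above both BDL libraries in the left panel and among cells with none of the 5 vessel genes, and sham replicate 2 has no lymphatic-type cell.

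Vessel type was read from 5 genes: sinusoidal-type from Stab2 and Lyve1, vascular-type from Selp and Sele (the P- and E-selectins, which capture leukocytes on activated vessels) and lymphatic-type from Ccl21a. A cell took the type with most UMIs, so a type is a range of counts and not a cell type. There were 93 sinusoidal-type cells, 34 vascular-type cells, 8 lymphatic-type cells, 1 tied cell and 48 cells with none of the 5 genes. The 2 selectins went together: of 37 cells with Selp and 38 with Sele, 24 had both. Lyve1 was found in 13 of the 14 cells with Ccl21a, and Stab2 in 28 of the 37 cells with Lyve1. Selp and Ccl21a were seen together in 2 cells. Lyve1 is a gene of both sinusoids and lymphatics, and Ccl21a has near-identical copies in the mouse genome, so its counts are uncertain.

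Several genes that the call did not use differed in level between the 3 types. The values are CPM of UMIs pooled over all cells of a type and are given without a test. In sinusoidal-type cells the mannose receptor Mrc1 stood at 951 CPM, against 273 in vascular-type and 208 in lymphatic-type cells. The secreted nuclease Dnase1l3 followed at 415, 73.5 and 0 CPM, and the transcription factor Maf at 1024, 189 and 416 CPM. Among the 3 types, Plxnc1 (522, 157 and 0 CPM), Fcgr2b (422, 252 and 0) and Bmp2 (797, 556 and 0) were also highest in sinusoidal-type cells. Mertk (408, 210 and 130 CPM) and Gpr182 (214, 94.5 and 26.0) were too. F8 was nearly level with vascular-type cells, at 730, 661 and 78.1 CPM. Some genes of the sinusoidal list gave no such clear order, among them Cd36 at 268, 388 and 104 CPM. Clec4g, a C-type lectin of sinusoids, stood at 295 CPM against 189 and 0, but its order against vascular-type cells turned between groups, with 259 against 335 CPM in the sham libraries and 342 against 74.8 in the BDL libraries. Gata4 was at 127 CPM in sinusoidal-type, 210 in vascular-type and 303 in unassigned cells. Stab1 was at 783 CPM in sinusoidal-type, 441 in vascular-type and 963 in lymphatic-type cells, and within the BDL libraries at 1196 in sinusoidal-type and 873 in lymphatic-type cells.

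In vascular-type cells the genes of larger vessels were high. Endothelin 1 (Edn1), a vasoconstrictor, stood at 735 CPM, against 20.1 in sinusoidal-type and 0 in lymphatic-type cells. Vwf stood at 714 CPM against 40.2 and 0. The leukocyte adhesion molecule Vcam1 stood at 2047 CPM against 442 and 0, but 106 of its 195 vascular-type UMIs came from 1 cell of BDL replicate 2, without which it stood at 1027 CPM. Without its top cell Vwf stood at 438 CPM. The Wnt enhancer Rspo3, a signal of central vein endothelium, stood at 493 CPM against 20.1 and 52.0, and its 47 UMIs came from 5 of the 34 cells, 19 of them from 1 cell, without which it stood at 323 CPM.

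In lymphatic-type cells several genes of lymphatic endothelium were high, although the call used Ccl21a alone. Prox1 stood at 1223 CPM, against 368 in sinusoidal-type and 31.5 in vascular-type cells. Multimerin 1 (Mmrn1) stood at 1639 CPM against 502 and 0. Within the BDL libraries, which gave 92.4% of lymphatic-type and 43.1% of sinusoidal-type UMIs, the values for lymphatic-type and sinusoidal-type cells were closer: 1295 and 699 CPM for Prox1, and 1407 and 1056 CPM for Mmrn1. Podoplanin (Pdpn) stood at 234 CPM against 53.6 and 0, with 5 of its 9 UMIs from 1 cell. Sema3a, a semaphorin, stood at 729 CPM against 80.3 and 0. Within the BDL libraries Pdpn stood at 225 CPM in lymphatic-type and 124 in sinusoidal-type cells, and Sema3a at 647 and 171 CPM. Flt4, also of the lymphatic list, was near level, at 494 CPM in lymphatic-type and 449 in sinusoidal-type cells. In BDL replicates 1 and 2 it had 7 and 9 UMIs in lymphatic-type cells, of 35529 UMIs in all. In sinusoidal-type cells it had 9 and 32, of 64379. The pan-endothelial phosphatase Ptprb, a gene of the rule, was at 468 CPM in these 8 cells and at 2330 and 2247 CPM in the other types.

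**Figure D2:**
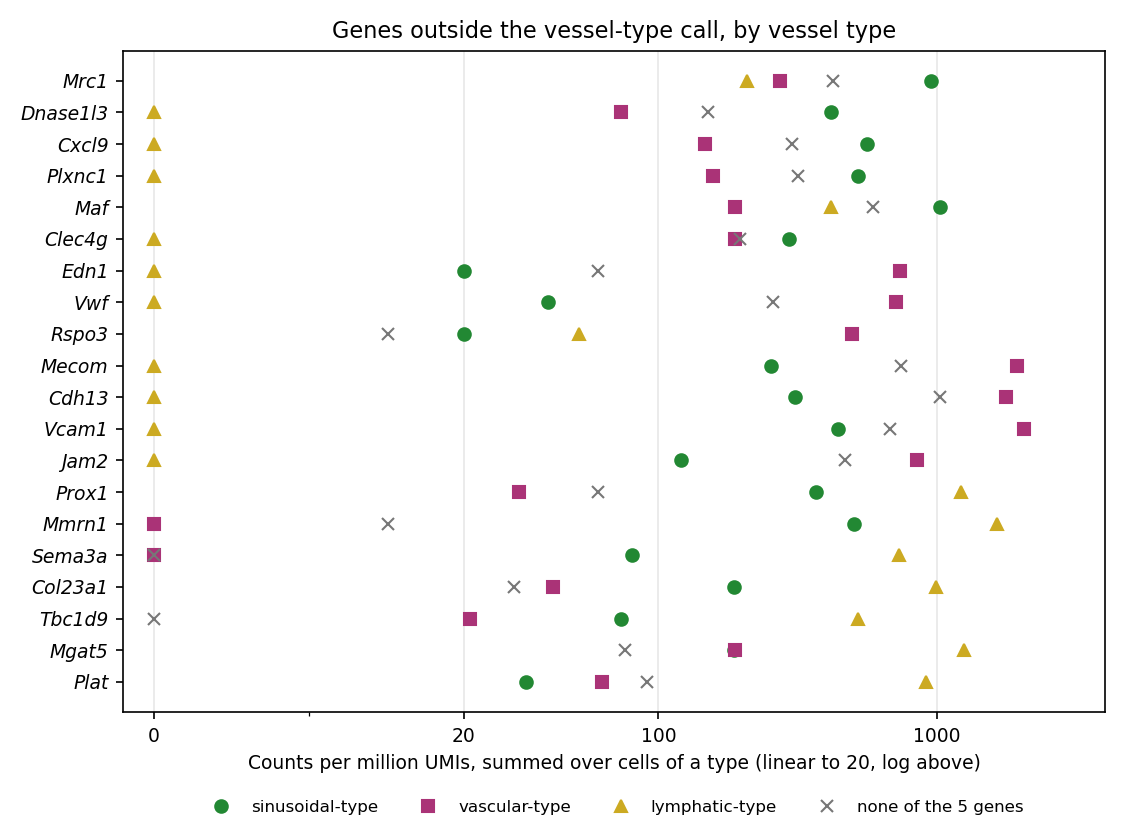
Level of 20 genes outside the vessel-type call in sinusoidal-type (93 cells), vascular-type (34), lymphatic-type (8) and unassigned endothelial cells (48), as CPM of UMIs pooled over the cells of a type; the axis is linear to 20 and logarithmic above. Edn1, Vwf and Rspo3 are highest in vascular-type cells among the 4 classes drawn, and Prox1 and Mmrn1 are highest in lymphatic-type cells, with the sinusoidal-type cells next.

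The Prox1 and Mmrn1 counts in sinusoidal-type cells sat in few cells: all 75 Mmrn1 UMIs were in 7 of the 93. Over all types, 15 endothelial cells had at least 2 UMIs over Prox1 and Mmrn1, a limit set after the data were seen. Of these, 7 were called sinusoidal-type, 7 lymphatic-type and 1 had no vessel gene. In sham replicate 1 they were 13.2% of endothelial cells, with an exact 95% interval from 4.41 to 28.1. In BDL replicate 1 they were 17.6%, from 3.80 to 43.4, and in BDL replicate 2 they were 23.3%, from 9.93 to 42.3. Sham replicate 2 had 0 of 99, which allows a share of up to 3.03% by the limit of 3 counts and 3.66% by the exact 95% interval. Of the 5 such cells of sham replicate 1, 2 had Prox1 without a UMI of Mmrn1 or Ccl21a, held 8 and 6 UMIs of the excluding genes, and gave 5509 and 5309 of the 15438 UMIs in these cells. Prox1 is also expressed by biliary cells, at 330 CPM before TMM scaling in that library, and the part of biliary RNA in those 2 cells was not tested. With cells thinned to 1000 UMIs, the shares of cells with at least 2 UMIs over these genes were 2 of 25 (8.0%), 0 of 52, 3 of 16 (18.8%) and 6 of 30 (20%) in the order sham 1, sham 2, BDL 1 and BDL 2. Unthinned, such cells held 23.5%, 0%, 38.4% and 31.6% of the endothelial UMIs of the 4 libraries in the same order. Any value summed over endothelial cells carries this difference in makeup, and within such sums a change in the number of cells of a type and a change in RNA per cell cannot be told apart.

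Of the vessel types, the share of sinusoidal-type cells overlapped between groups and the shares of lymphatic-type and vascular-type cells did not. Sham replicate 1 had 2 lymphatic-type cells of 38 and sham replicate 2 had 0 of 99, while BDL replicate 1 had 3 of 17 and BDL replicate 2 had 3 of 30. The 0 comes from the call, in which Lyve1 counts as sinusoidal: cells with a Ccl21a UMI were 3, 1, 3 and 7 in the order sham 1, sham 2, BDL 1 and BDL 2, and 6 of these 14 were called sinusoidal-type, among them the 1 of sham replicate 2. The lymphatic-type share gave a difference of 11.2 percentage points (exact permutation p = 0.33), or 6.29 points with cells thinned to 1000 UMIs. With 1 library left out it ran from 7.37 points without BDL replicate 1 to 15.0 without BDL replicate 2. Vascular-type cells were 26.3% and 11.1% against 29.4% and 26.7%, a difference of 9.33 points (exact permutation p = 0.33), which fell to 1.72 points without sham replicate 2. After thinning it was 6.09 points and the groups overlapped. The share of sinusoidal-type cells overlapped, at 34.2% and 56.6% for sham and 47.1% and 53.3% for BDL (difference 4.81 points, exact permutation p = 1). Without sham replicate 1 the sign turned, to -6.37 points. Cells with none of the 5 genes were 34.2% and 32.3% against 5.88% and 6.67%, a difference of -27.0 points (exact permutation p = 0.33). With cells thinned to 1000 UMIs it was -23.0 points.

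To ask which genes changed in endothelial cells after ligation, UMIs were summed per library and tested with edgeR. Of 1820 genes tested, 19 passed (1.04%), 11 higher in the BDL libraries (0.604%) and 8 lower (0.44%). The median log2 fold change over all tested genes was -0.0021. The libraries of the groups did not overlap for any of the 19. Sham replicate 1 against BDL replicate 1, the pair in which label and cell table match, therefore gave the same directions. Since the genes were called under the labels in these same libraries, that does not bear on which group names are right. Non-overlap was common in itself: it held for 45.7% of all tested genes. The 15 genes of the rule entered the fit and are given without a test.

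The 11 genes that rose included Prox1 and several that were highest in lymphatic-type cells. All values that follow are CPM scaled by TMM (edgeR's trimmed-mean normalization), in the order sham 1, sham 2, BDL 1 and BDL 2. Prox1 was at 181, 37.3, 499 and 548 CPM (log2 fold change of 2.41 with SE 0.55, edgeR adjusted p = 0.0457). A single cell gave 19 of its 27 UMIs in BDL replicate 1 and another 8 of 12 in sham replicate 1; without the top cell of each library it was at 66.4, 24.4, 183 and 501 CPM before TMM scaling. Plat, the tissue plasminogen activator that starts clot lysis, was at 0, 18.7, 592 and 149 CPM (4.72, SE 0.91, edgeR adjusted p = 0.0249), and 20 of its 32 UMIs in BDL replicate 1 came from 1 cell. Both were low in both sham libraries, and sham replicate 1 had the higher Prox1 of the sham pair. Tbc1d9 was at 15.1, 0, 167 and 191 CPM (4.64, SE 1.0, edgeR adjusted p = 0.0359). Col23a1, a membrane-spanning collagen, was at 30.1, 74.6, 462 and 307 CPM (2.70, SE 0.53, edgeR adjusted p = 0.0249). Mgat5, a Golgi enzyme that branches N-glycans, was at 105, 84.0, 721 and 365 CPM (2.47, SE 0.50, edgeR adjusted p = 0.0261). In each of these the lower BDL library stood above the higher sham library. The top cell for each gene also gave 6 of the 9 Tbc1d9 UMIs, 12 of the 25 Col23a1 UMIs and 17 of the 39 Mgat5 UMIs of BDL replicate 1.

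Because BDL libraries gave 92.4% of lymphatic-type UMIs, these genes, picked for a rise in those libraries, are compared between vessel types within the BDL libraries only, in unscaled CPM and without a test. Plat was at 985 CPM in lymphatic-type, 77.7 in sinusoidal-type and 112 in vascular-type cells, and 20 of its 35 lymphatic-type UMIs came from 1 cell. Tbc1d9 was at 535 CPM against 171 and 37.4, Col23a1 at 1041 against 357 and 37.4, and Mgat5 at 1295 against 342 and 281. The 2 sham lymphatic-type cells held 0 UMIs of Plat, 1 of Tbc1d9, 1 of Col23a1 and 2 of Mgat5, too few to compare.

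Among the other rises were Itgav, Gja1, Dst and Smtn, given here as single genes and not as a group. Itgav, the integrin alpha V subunit that binds fibronectin and vitronectin and can activate latent TGF-beta, was at 105, 149, 536 and 647 CPM (log2 fold change of 2.18 with SE 0.43, edgeR adjusted p = 0.0249). Gja1, the gap junction protein connexin 43, was at 45.2, 103, 277 and 448 CPM (2.23, SE 0.50, edgeR adjusted p = 0.0457), with 23 of 54 UMIs in BDL replicate 2 from 1 cell. Dst, which links cytoskeletal filaments, was at 211, 168, 610 and 788 CPM (1.91, SE 0.40, edgeR adjusted p = 0.0324). Smtn, an actin-binding protein of contractile cells, was at 45.2, 28.0, 203 and 282 CPM (2.79, SE 0.58, edgeR adjusted p = 0.0316). The 2 sham values lay close together in Itgav, Dst and Smtn. Pooled over all libraries and without a test, Itgav was at 1249 CPM in lymphatic-type, 274 in sinusoidal-type and 409 in vascular-type cells. In the same order Dst was at 1717, 341 and 357 CPM and Smtn at 338, 141 and 178 CPM. Gja1, at 338, 174 and 399 CPM, was highest in vascular-type cells. These pooled values carry the group difference, since BDL libraries gave 92.4% of lymphatic-type UMIs.

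Nfat5, the transcription factor of the response to osmotic stress, was at 677, 504, 1850 and 1692 CPM (log2 fold change of 1.59 with SE 0.36, edgeR adjusted p = 0.0457). Uvrag, which acts in autophagy and endosome traffic, was at 151, 140, 518 and 514 CPM (1.83, SE 0.42, edgeR adjusted p = 0.0483). Pooled over all libraries, Uvrag was at 989 CPM in lymphatic-type, 328 in sinusoidal-type and 231 in vascular-type cells. Nfat5 was found in every one of the 8 lymphatic-type cells. Within the BDL libraries it was at 3884 CPM pooled in lymphatic-type cells, against 1414 in sinusoidal-type and 1291 in vascular-type cells. In BDL replicate 1 the top cell was the same one for 6 of the 11 rises, a lymphatic-type cell of 8131 UMIs. With the single cell of highest count removed from each library, the groups still did not overlap for any of the 19 genes.

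**Figure D3:**
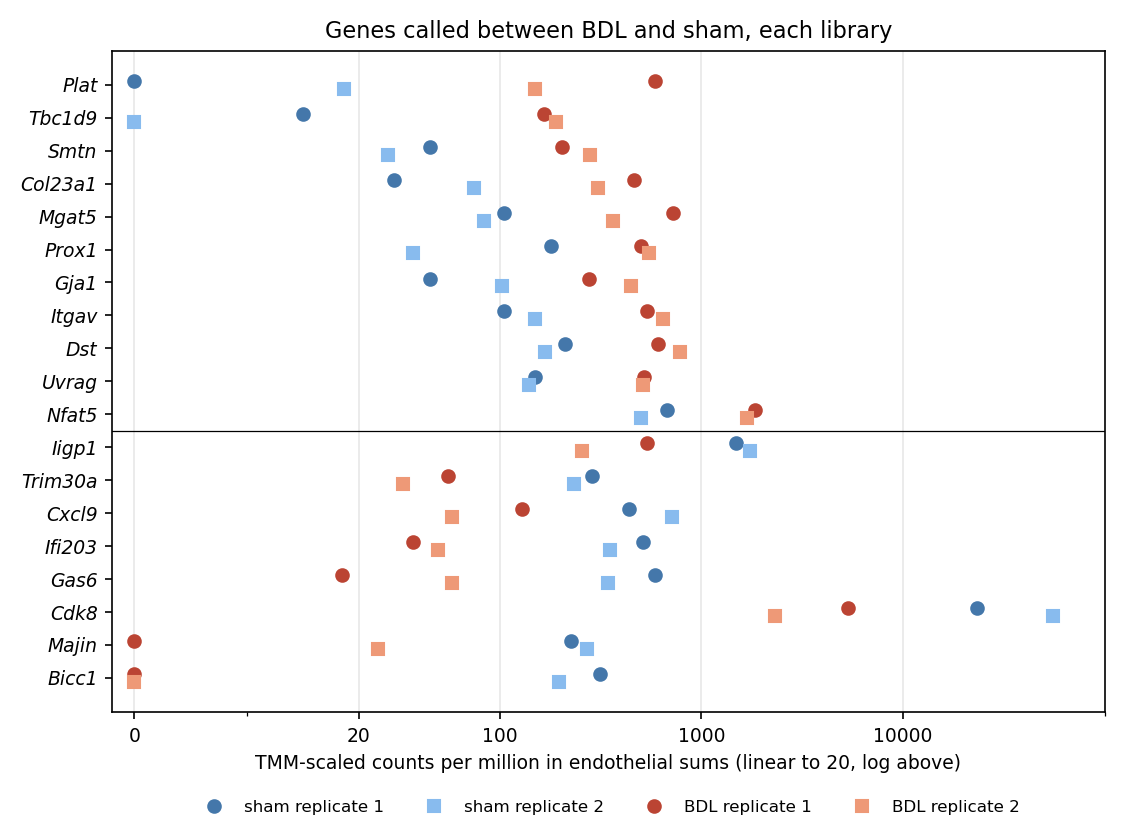
TMM-scaled CPM of the 19 genes called by edgeR in endothelial sums, one point per library (circles: replicate 1, squares: replicate 2); the axis is linear to 20 and logarithmic above, and the line separates the 11 genes higher in the BDL libraries from the 8 lower. For every gene the BDL points lie both above or both below the sham points.

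Among the 8 genes that fell were Cxcl9, Iigp1, Ifi203 and Trim30a, each known as a gene that interferon can induce. They were put together after their values were seen and come from no fixed list, and the share of such genes among all those tested was not counted. Cxcl9, a chemokine that draws T cells through the receptor CXCR3, was at 437, 718, 130 and 58.1 CPM (log2 fold change of -2.78 with SE 0.51, edgeR adjusted p = 0.0226). Iigp1, a GTPase of defence inside cells, was at 1490, 1736, 536 and 257 CPM (-2.10, SE 0.41, edgeR adjusted p = 0.0249). Ifi203, of a family of nuclear DNA-binding proteins, was at 512, 355, 37.0 and 49.8 CPM (-3.19, SE 0.52, edgeR adjusted p = 0.0128). Trim30a, of the tripartite-motif family, was at 286, 233, 55.5 and 33.2 CPM (-2.61, SE 0.56, edgeR adjusted p = 0.0324). In all 4 both sham libraries were higher than both BDL libraries. Iigp1 was found in 26 of 38, 65 of 99, 6 of 17 and 11 of 30 cells. Cxcl9 in sham replicate 1 came from 8 cells, of which 1 gave 18 of its 29 UMIs, and without that cell it was at 176 CPM before TMM scaling. Ifi203, Trim30a and Iigp1 belong to families of close paralogs, so the division of reads among copies is uncertain.

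Relatives of these genes had negative fold changes that missed the threshold. Cxcl10, a second ligand of CXCR3, was at 1731, 2529, 906 and 431 CPM (log2 fold change -1.73, edgeR adjusted p = 0.0593). Mndal, a neighbour in the family of Ifi203, gave -1.84 (edgeR adjusted p = 0.0593) and Iigp1c gave -1.67 (edgeR adjusted p = 0.0925). Of a list of 13 interferon-response genes that held none of these, 3 had counts enough to test. By edgeR 0 were called, where 1.04% of all tested genes were. Their log2 fold changes were -1.79 for Isg15, -1.36 for Rsad2 and -0.46 for Stat2. Isg15 alone was lower in both BDL libraries than in both sham libraries, as 22.7% of all tested genes were.

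The promoters of 3 of these 4 genes are shown, from RefSeq on the build GRCm38.p6: 250 bases before and 50 after an annotated start, on the strand of the gene. Iigp1 is named only. Capitals mark the letters GAAA, any 2 bases, then GAAA, on either strand, the core of the interferon-stimulated response element, which occurs in 1131 of 32851 such promoters (3.44%). Ifi203 has 2 listed starts, and the second holds the match (minus strand, chr1:173942443-173942742).
Ifi203: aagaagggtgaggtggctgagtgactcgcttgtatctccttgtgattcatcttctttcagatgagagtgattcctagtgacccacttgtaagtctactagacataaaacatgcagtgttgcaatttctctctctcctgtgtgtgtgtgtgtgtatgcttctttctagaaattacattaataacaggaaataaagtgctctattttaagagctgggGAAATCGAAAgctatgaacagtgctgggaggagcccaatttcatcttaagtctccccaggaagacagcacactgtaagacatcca
Trim30a also has 2 listed starts, and both hold a match, read here on the strand opposite to the gene (minus strand, chr7:104465144-104465443 for the first).
Trim30a: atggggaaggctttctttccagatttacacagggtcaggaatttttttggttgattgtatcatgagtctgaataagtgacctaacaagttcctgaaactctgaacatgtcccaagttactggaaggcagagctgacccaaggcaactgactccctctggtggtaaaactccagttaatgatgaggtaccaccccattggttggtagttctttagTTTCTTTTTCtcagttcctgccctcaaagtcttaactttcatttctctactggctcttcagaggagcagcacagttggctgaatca
The Cxcl9 window (minus strand, chr5:92328030-92328329) holds no match.
Cxcl9: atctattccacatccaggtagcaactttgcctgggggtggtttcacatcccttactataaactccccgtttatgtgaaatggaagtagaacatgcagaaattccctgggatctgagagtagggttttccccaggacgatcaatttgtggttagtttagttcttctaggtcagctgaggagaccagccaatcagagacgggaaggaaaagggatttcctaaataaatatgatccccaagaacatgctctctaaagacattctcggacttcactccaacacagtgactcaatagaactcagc
A match is a description of the letters and not a bound site.

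The other 4 genes that fell were Gas6, Bicc1, Majin and Cdk8. Gas6, the ligand of the receptors Axl, Mertk and Tyro3 that mediate uptake of dying cells, was at 587, 345, 18.5 and 58.1 CPM (log2 fold change of -3.32 with SE 0.56, edgeR adjusted p = 0.0128). A single cell gave 26 of its 39 UMIs in sham replicate 1 and another 14 of 37 in sham replicate 2; without the top cell of each library the values were 215, 191, 0 and 47.8 CPM before TMM scaling. Bicc1, an RNA-binding protein known from cystic kidney disease, had 21 UMIs in each sham library and 0 in both BDL libraries. Against a floor of 3 UMIs over the BDL group it was at least 11.9-fold lower there (edgeR adjusted p = 0.0128). It was found in 5 and 9 of the sham cells, and 1 cell gave 14 of the 21 UMIs in sham replicate 1 and another 6 of 21 in sham replicate 2. Without those 2 cells the sham libraries were at 116 and 124 CPM before TMM scaling, and the bound was 6.52-fold.

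Both genes are also expressed outside the endothelium. Bicc1 stood at 722 CPM pooled in biliary cells and at 761 CPM in mesenchymal cells, against 120 CPM in endothelial cells, and Gas6 at 261, 467 and 239 CPM. Biliary marker genes in the endothelial sums were lower in the BDL libraries, as given above, and the biliary keratin Krt8 was at 226, 159, 18.5 and 33.2 CPM (log2 fold change -2.68, edgeR adjusted p = 0.0734). The secreted phosphoprotein Spp1, a biliary marker, gave -1.81 (edgeR adjusted p = 0.0593). The part of these counts in the fall of Bicc1 and Gas6 was not tested.

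Majin, known for tethering telomeres in meiosis, was at 226, 271, 0 and 24.9 CPM (log2 fold change of -3.79 with SE 0.70, edgeR adjusted p = 0.0226), and its 3 UMIs in BDL replicate 2 came from 1 cell. Cdk8, the kinase of the Mediator complex, took 2.36%, 4.78%, 0.559% and 0.257% of endothelial UMIs in the same order (-3.36, SE 0.70, edgeR adjusted p = 0.0322). Its share also fell in biliary cells, from 0.520% and 0.788% to 0.249% and 0.131%. The non-coding transcript Gm26917 took 12.2%, 16.3%, 11.3% and 9.79% of endothelial UMIs and was not called (log2 fold change -0.65, edgeR adjusted p = 0.782). Cdk8 and Gm26917 were treated here as abundant transcripts that mark no cell type. Leaving them out with similar transcripts and mitochondrial genes gave 19 calls by edgeR, 18 of them shared with the main test. Whether the Cdk8 counts come from Cdk8 messenger RNA was not tested.

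Fewer genes were called when lymphatic-type cells, or cells with at least 2 UMIs over Prox1 and Mmrn1, were left out. Without the 8 lymphatic-type cells edgeR called 5 of 1537 genes: Bicc1, Cdk8, Gas6, Ifi203 and Majin, with 0 of the rises (165 genes at an unadjusted p under 0.05). Without those and the other cells with at least 2 UMIs over Prox1 and Mmrn1, 16 cells in all, it called 0 of 1154 genes (130 unadjusted), while DESeq2 was not run on that subset. Both subsets were chosen after the data were seen and hold fewer UMIs. Of the 11 rises, 4 could still be tested in the smaller subset, with a median log2 fold change of 1.93 against 2.21 for the same genes in all endothelial cells. The rest, Plat, Tbc1d9, Smtn, Col23a1, Prox1, Dst and Uvrag, had too few counts there. The medians therefore cover only rises that kept counts outside the cells left out. Nfat5 went from 1.59 to 0.73, and Itgav from 2.18 to 2.10. Of the 8 falls, 6 could be tested, with a median of -2.61 against -2.99. In sinusoidal-type cells alone 0 of 612 genes were called (32 unadjusted), and Iigp1 gave -0.72, Ifi203 -2.12 and Cxcl9 -2.15, while Trim30a had too few counts to test.

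**Figure D4:**
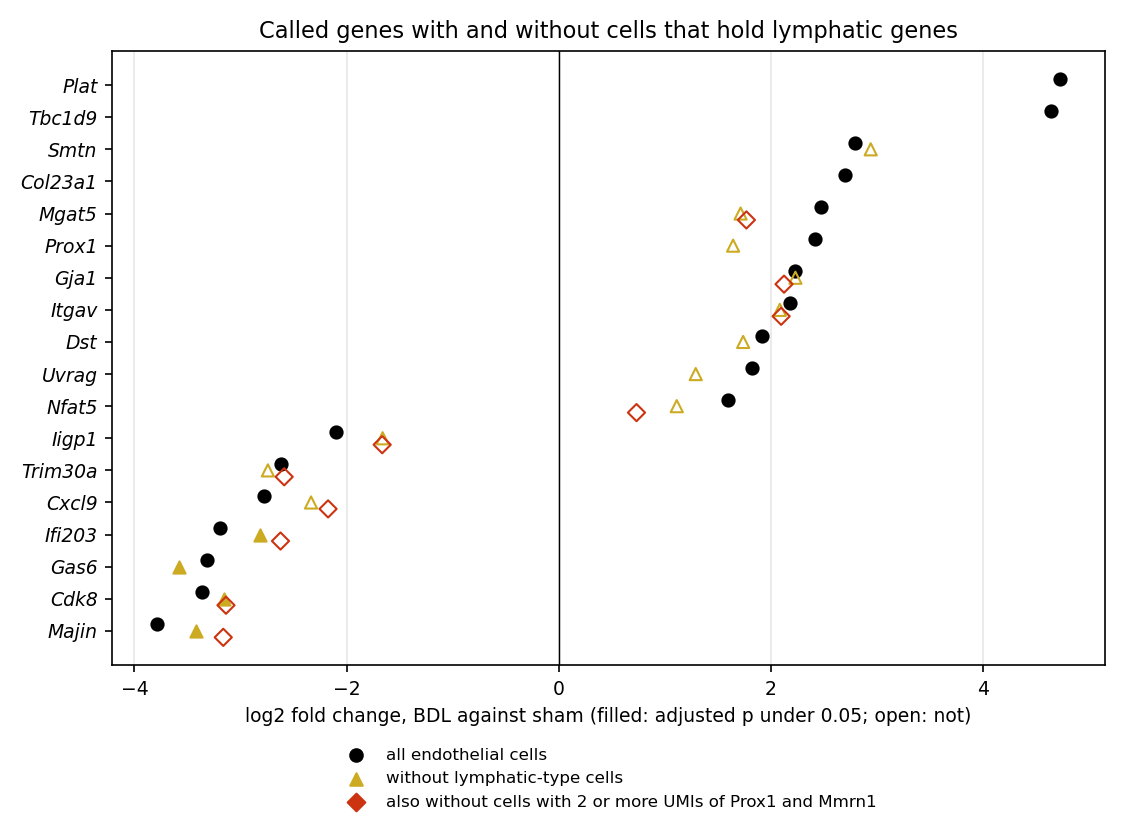
Log2 fold change (BDL against sham) of 18 called genes in all endothelial cells (black), without the lymphatic-type cells (yellow) and also without cells with at least 2 UMIs over Prox1 and Mmrn1 (red); filled points have an edgeR adjusted p under 0.05, and a missing point means too few counts to test. Bicc1, at 0 in the BDL libraries, is left out; no rise is filled in yellow or red, and all plotted points keep their direction.

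Leaving out 1 library also moved the count of calls. It was 43 genes without sham replicate 1, 13 without sham replicate 2, 106 without BDL replicate 1 and 48 without BDL replicate 2, and in each the lone library was assumed to vary like the pair. DESeq2 called 7 genes, all among the 19: Plat, Bicc1, Cdk8, Gas6, Ifi203, Cxcl9 and Iigp1.

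Of a list of 18 genes of sinusoidal identity, 14 were tested, 0 were called by edgeR in either direction (smallest adjusted p = 0.0608), and 3 had a positive fold change. Of all tested genes 1.04% were called. In 9 of the 14 both BDL libraries were below both sham libraries, where 22.7% of all tested genes were, and in 2 both were above, where 22.9% were. Their median log2 fold change was -0.73, against -0.0021 for all tested genes. Stab1, a scavenger receptor, was at 406, 401, 573 and 921 CPM (0.92, edgeR adjusted p = 0.227), and Lyve1, the hyaluronan receptor, at 211, 243, 573 and 805 CPM (1.61, edgeR adjusted p = 0.0608). Lyve1 had a log2 fold change of 0.0080 without the 8 lymphatic-type cells and the other cells with at least 2 UMIs over Prox1 and Mmrn1.

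Other sinusoidal genes were lower without passing. Gata4, a transcription factor of sinusoidal identity, was at 271, 261, 18.5 and 99.6 CPM (-1.89, edgeR adjusted p = 0.102). Coagulation factor VIII (F8) was at 647, 1073, 536 and 282 CPM (-1.16, edgeR adjusted p = 0.165), and Bmp2, a signal to hepatocytes that controls iron, at 617, 802, 314 and 440 CPM (-0.89, edgeR adjusted p = 0.242). The Fc receptor Fcgr2b gave -0.70, Clec4g -0.89, Maf -0.39, Mrc1 -0.51 and the orphan receptor Gpr182 -0.13, all with an edgeR adjusted p above 0.3. For Mrc1 and Gpr182 the groups overlapped. In sinusoidal-type cells alone the sign turned for Clec4g (0.16), Maf (0.16) and Mrc1 (0.097). Gata4, F8, Bmp2 and Fcgr2b kept their sign in every alternative. Stab2, a gene of the rule, was at 903, 1474, 684 and 655 CPM.

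Basement membrane and capillary genes had mostly positive fold changes without passing. Of 15 genes in that list, 11 were tested, 10 had a positive fold change and 0 were called (edgeR, smallest adjusted p = 0.0593), with a median of 0.67. Over all tested genes 1.04% were called. In 7 of the 11 both BDL libraries were above both sham libraries, where 22.9% of all tested genes were. Fibronectin (Fn1) was at 60.2, 28.0, 130 and 357 CPM (2.64, edgeR adjusted p = 0.0593), and nidogen 1 (Nid1), a linker of laminin and collagen IV, at 316, 233, 592 and 597 CPM (1.13, edgeR adjusted p = 0.156). Plvap, which forms the diaphragms of fenestrae and is gained in capillarization, was at 181, 168, 296 and 423 CPM (1.08, edgeR adjusted p = 0.205). Pecam1 was at 918, 1082, 1147 and 838 CPM (-0.03, edgeR adjusted p = 0.973), and Vwf at 151, 215, 111 and 431 CPM, with overlapping groups. Cd34 was too low to test, at 90.3, 84.0, 0 and 58.1 CPM.

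Genes of shear stress and vascular tone were also mostly higher without passing: 10 of 13 were tested, 9 had a positive fold change, 6 had both BDL libraries above both sham libraries, as 22.9% of all tested genes did, and 0 were called (edgeR, smallest adjusted p = 0.134), with a median of 0.68. Over all tested genes 1.04% were called. Nos3, the endothelial nitric oxide synthase, was at 45.2, 84.0, 370 and 158 CPM (1.82, edgeR adjusted p = 0.134). Piezo1, a channel opened by stretch, gave 1.39, and the flow-responsive transcription factor Klf2 gave 0.62.

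For leukocyte recruitment, 8 of 16 genes were tested and Cxcl9 alone was called, as a fall, where 0.44% of all tested genes were; the median was -0.45. Icam1 was at 1009, 821, 536 and 531 CPM (-0.77, edgeR adjusted p = 0.284). Sele was at 948, 532, 481 and 572 CPM (-0.45, edgeR adjusted p = 0.629), and Vcam1 at 572, 784, 444 and 1344 CPM (0.44, edgeR adjusted p = 0.693), and for both the groups overlapped. The cell with 106 Vcam1 UMIs gave most of the 162 in BDL replicate 2, which without it was at 555 CPM before TMM scaling. Selp, a gene of the rule, was at 1114, 588, 388 and 1203 CPM, and 1 cell gave 102 of its 145 UMIs in BDL replicate 2. The monocyte chemokine Ccl2 was too low to test, with 2, 1, 0 and 9 UMIs, and Nos2 had 2 UMIs in all.

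Receptors of VEGF and angiopoietin held 0 calls: 9 of 13 genes were tested, 4 with a positive fold change, and the median was -0.06. Over all tested genes 1.04% were called. In 3 of the 9 both BDL libraries were above both sham libraries, where 22.9% of all tested genes were. In 3 both were below, where 22.7% were. The neuropilin Nrp1, a co-receptor of VEGF and semaphorins, was at 813, 1577, 296 and 465 CPM (-1.62, edgeR adjusted p = 0.0685). Kdr gave -0.47 and Tek, the receptor of angiopoietins, gave -0.06, with edgeR adjusted p above 0.6. Angpt2, an antagonist of Tek, was at 30.1, 37.3, 185 and 124 CPM (2.07, edgeR adjusted p = 0.163). In BDL replicate 1 Angpt2 was found in 2 cells, of which 1 gave 9 UMIs. Notch1 gave 0.13 and its ligand Dll4 gave 0.54. Rspo3 was at 196, 131, 130 and 158 CPM with overlapping groups, and the Wnt ligand Wnt2 was too low to test, with 4, 5, 2 and 0 UMIs. The endothelial transcription factor Erg gave 1.0 (edgeR adjusted p = 0.311).

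The 5 tested genes of the lymphatic list had both BDL libraries above both sham libraries, as 22.9% of all tested genes did. Prox1 alone was called. Ccl21a was at 512, 74.6, 925 and 581 CPM (1.44, edgeR adjusted p = 0.219), and Mmrn1 at 286, 9.33, 444 and 788 CPM (2.30, edgeR adjusted p = 0.123). In sham replicate 2 both were far below sham replicate 1. Over the 18 lists together, 114 of 233 genes were tested and 3 were called (Prox1, Plat and Cxcl9), against 1.04% of all tested genes. The lists of antigen presentation (3 tested, median -0.90), inflammatory stress (11 tested, median -0.45), junctions (9 tested, median -0.37), endothelial transcription factors (12 tested, median 0.05) and TGF-beta and BMP (9 tested, median 0.05) held 0 calls each by edgeR.

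Of 15 proliferation genes, 2 were tested, Mki67 and Pcna, and 0 were called by edgeR, where 1.04% of all tested genes were. Pcna, a clamp of DNA replication and repair, was found in 8 of 38, 16 of 99, 5 of 17 and 9 of 30 cells, at 166, 168, 148 and 141 CPM (log2 fold change -0.21, edgeR adjusted p = 0.888). A UMI of Mki67 or of Top2a, both genes of dividing cells, was found in 3 of 38, 1 of 99, 3 of 17 and 3 of 30, and after thinning to 1000 UMIs 1 of 25, 0 of 52, 3 of 16 and 2 of 30. Mki67 was at 30.1, 0, 222 and 124 CPM (log2 fold change 3.64, edgeR adjusted p = 0.0869), and 24 of its 29 UMIs lay in 2 lymphatic-type cells, one in each BDL library. No difference in cycling was read from this.

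Whether the response was particular to endothelial cells was tested against biliary cells of the same 4 libraries (10614 cells), with the library as a block. The effect of ligation differed between the 2 cell classes for 106 of 13917 genes by edgeR (0.762%). Over only the 1820 genes that passed the filter in endothelial sums, 8.02% differed. Of the 11 rises, 7 differed: Tbc1d9, Col23a1, Mgat5, Prox1, Gja1, Uvrag and Nfat5. The rises and falls were picked for a change in these same endothelial sums, which favours a difference in advance. Counts among them are descriptions and do not show a response particular to endothelial cells. Prox1 fell in biliary cells, where it was at 301, 289, 209 and 235 CPM (log2 fold change -0.54; difference 3.08, SE 0.50, edgeR adjusted p = 1.21e-06). Col23a1 in biliary cells fell by 1.87 on the log2 scale (difference 4.60, SE 0.75, edgeR adjusted p = 1.17e-06). Plat rose in both classes, by 3.08 in biliary cells, and the difference of 1.83 did not pass (edgeR adjusted p = 0.867). Itgav rose in both too, by 1.5 in biliary cells. Dst was also higher in biliary cells of both BDL libraries, at 291, 289, 430 and 489 CPM before TMM scaling.

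Of the 8 falls, Bicc1 passed as different from biliary cells (edgeR adjusted p = 2.59e-05), where it was at 950, 873, 649 and 674 CPM. Tested over the 1820 genes that passed the filter in endothelial sums, 146 genes were called (8.02%), and among them were also Cdk8 (edgeR adjusted p = 0.0207), Gas6 (edgeR adjusted p = 0.0243) and, of the rises, Smtn (edgeR adjusted p = 0.0438). In biliary cells themselves 4 of the 8 falls also passed as lower, where 12% of all genes tested there did: Iigp1 (log2 fold change of -2.90, edgeR adjusted p = 0.00157), Cdk8 (-1.91, edgeR adjusted p = 0.0119), Gas6 (-1.21, edgeR adjusted p = 0.00161) and Bicc1 (-0.59, edgeR adjusted p = 0.0128). Cxcl9 and Ifi203 were near absent from biliary cells, at 0.492 to 1.95 and 0.211 to 1.47 CPM. Mesenchymal cells of the same libraries, which were not tested, also held the 4 interferon-inducible genes named above, Majin and Cdk8 at lower levels in both BDL libraries than in both sham libraries. In unscaled CPM, in the order sham 1, sham 2, BDL 1 and BDL 2, Iigp1 was there at 2368, 1977, 514 and 275, Ifi203 at 757, 352, 250 and 172, and Trim30a at 198, 119, 61.5 and 30.8. Cxcl9 was low there, at 13.9, 14.1, 1.81 and 0. Majin was at 341, 580, 150 and 28.2, and Cdk8 at 6109, 10827, 3717 and 2064. For Gas6 and Bicc1 the groups overlapped there, at 546, 348, 309 and 612 and at 831, 647, 660 and 879. The share of all genes without overlap in mesenchymal cells was not counted. Among genes that did not pass in endothelial cells, Nrp1 also differed: it rose in biliary cells from 21.8 and 28.1 to 123 and 127 CPM (log2 fold change 2.20), and the difference was -3.69 (SE 0.42, edgeR adjusted p = 1.43e-14). Klf2 fell in biliary cells, from 20.9 and 36.2 to 4.15 and 4.07 CPM, and the difference was 3.62 (SE 0.63, edgeR adjusted p = 6.33e-06). Notch1 in biliary cells fell by 2.11 on the log2 scale, with a difference of 2.32 (SE 0.56, edgeR adjusted p = 0.00767). With the endothelial side limited to sinusoidal-type cells, 6 genes were called in place of 106. Without sham replicate 2 the count was 19.

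**Figure D5:**
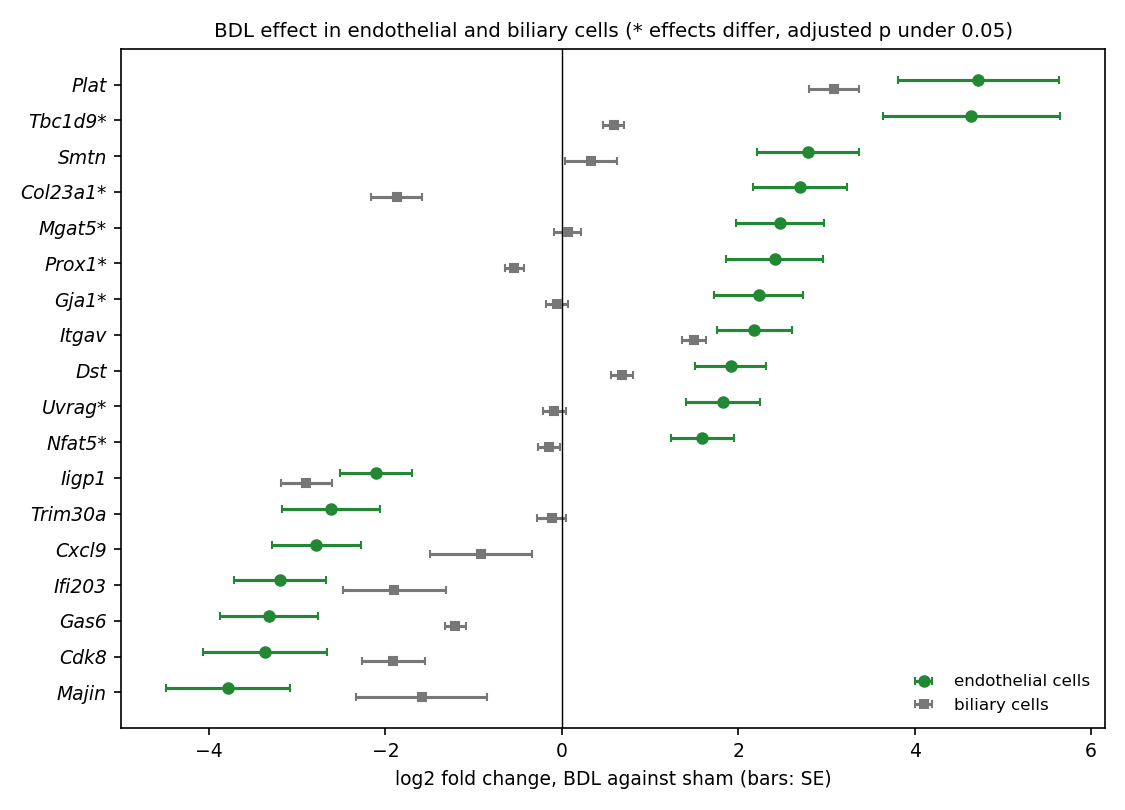
Log2 fold change (BDL against sham) with its SE for 18 called genes in endothelial sums (green circles) and in biliary sums of the same libraries (grey squares); an asterisk marks genes whose effects differ between the classes by edgeR (adjusted p under 0.05), and Bicc1 is left out because it was at 0 in the BDL endothelial sums. Plat, Itgav, Iigp1, Cdk8 and Gas6 moved the same way in both classes, while Prox1 and Col23a1 moved in opposite directions.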

How the data were processed

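Cells were barcoded with the Evercode kit, per the labels' protocols. The authors deposited matrices of UMI counts per cell and gene, not normalized, and tables of cells; the reference is GRCm39, per the submitters' processing notes. The sources used here do not give the aligner, how cells were called or whether doublets were removed. The members and gene lists were chosen with earlier results of these data known.

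Counts were summed per library over endothelial cells (184 cells) and over biliary cells: at least 4 UMIs over Epcam, Krt19, Pkhd1 and Cldn7, and more than over the 8 endothelial genes, Reln, Dcn and Col1a2. The test was the two-sided quasi-likelihood F test of edgeR 4.0.16 under R 4.3.3, after filterByExpr and TMM, with Benjamini-Hochberg adjustment over all genes tested and a threshold of 0.05. SEs come from the F statistic. TMM-scaled CPM use all endothelial UMIs as library size, and CPM of vessel types and markers are unscaled. The interaction with cell class had the library as a block. Shares were compared by exact permutation of the 4 libraries, with Clopper-Pearson intervals. On simulated endothelial sums the edgeR fit recovered 3.5%, 65% and 84.5% of 200 genes changed by 1, 2 and 3 on the log2 scale, with 0, 2 and 8 false calls. The interaction recovered 76.5% of 200 genes changed by 3, with 2 false calls among 13707. The simulations gave every gene of a cell class the same dispersion. They did not model single cells that give most UMIs of a gene, so these rates may not hold for the real sums.

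Genes named were the 10 largest rises and 10 largest falls among calls with a mean of at least 50 CPM and no overlap between groups (10 and 8 met this), up to 3 called genes per list, and 34 genes named whatever their values, of which 29 were tested. Nfat5, Cxcl10, Mndal, Iigp1c, Krt8, Fn1, Gm26917 and the members of lists given as examples were added after their values were seen. Alternatives were DESeq2 1.42.0, RLE factors, other filters, thinning, other cell choices, the 5% of cells with the highest Scrublet scores (scanpy 1.11.5) left out, and each library left out. No doublets were removed otherwise.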

Additional observations from a re-analysis of the deposited data

Results flagged for a closer look

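For 12 of the genes named, the effect of ligation differed between endothelial and biliary cells by the interaction test in edgeR, given here as endothelial minus biliary log2 fold change. In 6 of these genes that rose in endothelial sums the difference was positive: 4.48 for Tbc1d9, 4.60 for Col23a1, 2.42 for Mgat5, 3.08 for Prox1, 2.39 for Gja1 and 1.97 for Uvrag. Nfat5, which also rose, gave 1.81. These rises were picked from the same endothelial sums, which favours a positive difference in advance. Bicc1 gave -13.0, a fitted value that depends on the prior count, since its BDL endothelial sums held 0 UMIs. Pecam1 (2.38), Notch1 (2.32), Klf2 (3.62) and Nrp1 (-3.69) did not pass the test within endothelial cells. In biliary cells Notch1, Klf2 and Nrp1 passed, while Pecam1 did not (edgeR adjusted p = 0.0782). Pecam1 in biliary sums was at 2.98 to 33.96 CPM, against 838 to 1147 CPM in endothelial sums.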

How the results depend on the processing

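The count of 19 genes called in endothelial sums became 46 with at least 8 endothelial UMIs per cell, 12 with cells chosen after thinning, 8 with endothelial UMIs at least 3 times the excluding UMIs, 7 with DESeq2 and 62 with no filter on low counts. It was 5 without lymphatic-type cells, 0 without those and the other cells with at least 2 UMIs over Prox1 and Mmrn1, 16 cells in all (edgeR, 130 at an unadjusted p under 0.05) and 0 in sinusoidal-type cells alone (32 unadjusted). With 1 library left out it ran from 13 to 106. The other 7 alternatives, among them RLE factors, Scrublet and equal depth of the sums, stayed within 1.5 times of 19. The 106 genes that differed from biliary cells became 68 under the 3-fold rule and 6 in sinusoidal-type cells, and 19 to 105 with 1 library left out.

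All 19 called genes kept their direction wherever they were tested. Ifi203 kept its call in 17 of 19 alternatives and Gja1 in 7 of 18. Signs turned only for genes that had not passed. In sinusoidal-type cells Clec4g gave 0.16, Mrc1 0.097, Icam1 0.74 and Maf 0.16. Without lymphatic-type cells Gpr182 gave 0.19, Pecam1 0.11, Tek 0.31 and Rspo3 0.28, and without the 16 cells Sele gave 0.035, Pecam1 0.12, Tek 0.46 and Rspo3 0.42. With at least 8 UMIs Pecam1 gave 0.00847 and Tek 0.00584. Under the 3-fold rule Tek gave 0.10 and Rspo3 0.073, and at equal depth Pecam1 gave 0.23 and Tek 0.79. With 1 library left out, Mrc1 ran from -0.92 to 0.058, Gpr182 from -0.74 to 0.12, Vcam1 from -0.67 to 0.95, Vwf from -0.79 to 1.18, Pecam1 from -0.28 to 0.15, Tek from -0.59 to 0.97, Notch1 from -0.14 to 0.31 and Rspo3 from -0.46 to 0.15. The sinusoidal share ran from -6.37 to 16.0 points, and the share of tied cells was -0.962 points after thinning. The cause was not tested.

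No paired analysis was possible because neither titles nor descriptions number the replicates; the numbers used here only name libraries. In the 4 libraries, 17 to 99 cells and 51879 to 124215 UMIs stand behind each sum.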
